A study of Homo sapiens with 12 samples.

Results

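The 6 genes described here encode proteins that hasten the removal of messenger RNA: ZFP36, ZFP36L1 and ZFP36L2, which bind AU-rich elements, and BTG1, BTG2 and TOB1, which bind the deadenylase. They were taken by name from a count table of 26364 genes in HepG2 cells, a human line derived from a liver tumour, and all 6 passed the filter on low counts that left 13852 genes. RNA was sequenced at 0, 5, 10, 30 and 240 min after stimulation with insulin, with 2 libraries per time and 10 in all. No time after 0 min had a library without insulin. In every difference below, insulin therefore cannot be told apart from time in culture or handling. The series also held a peak list from 1 ChIP-seq library of the insulin receptor (IR), with its input, in the same line. All groups were unmodified HepG2 cells, and the labels name 3 nM as the insulin dose. The times rest on the sample titles, because the treatment text attached to every RNA library, the 0 min libraries included, names 5 min of insulin. The study's methods state that RNA-seq was done once, on samples they call biologically independent. The labels do not say what was kept separate. The p-values measure the spread between these libraries and not that between repeated experiments.

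Proteins of the ZFP36 family, also known as tristetraprolin and its relatives, recognise AU-rich elements in the 3′ untranslated region (UTR) of short-lived mRNAs, such as those of cytokines and immediate early genes, and bring the CCR4-NOT complex to them. CCR4-NOT removes the poly(A) tail, after which the cap is removed and the mRNA is degraded. The ZFP36 mRNAs are themselves short-lived and carry such elements, so that the proteins limit their own synthesis. BTG and TOB proteins bind the catalytic subunits CNOT7 and CNOT8 of the same complex, TOB1 also binds poly(A)-binding protein, and overproduction of either kind slows cell proliferation.

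The core letters bound by ZFP36 proteins are TATTTAT in DNA, and they were searched on the sense strand of the 3′ UTR of 1 GENCODE transcript per gene. All 3 ZFP36 mRNAs held 3 copies each. Of 11838 tested genes with a 3′ UTR, 35.2% held a copy and 6.81% held 3 or more. Among genes with a 3′ UTR within 20% of the same length, 1.02% had as many as ZFP36 in its 708 bases, 4.03% as many as ZFP36L1 in its 1871 bases, and 4.0% as many as ZFP36L2 in its 1917 bases. BTG1 held 1 copy in 3802 bases and BTG2 held 1 in 2164 bases. Among genes of like length 61.6% and 45.2%, respectively, held a copy. TOB1 held 0 in 757 bases. The longer form TTATTTATT, which overlaps the core, stood once in each ZFP36 mRNA and in 9.15% of all 3′ UTRs. A match is a description of letters and not a measured binding site.

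The windows of 29 bases below are shown because the ZFP36 family binds letters that its own mRNAs carry. For that family the copy within the longer form was chosen. For BTG1 and BTG2, which are not of that family, the only copy is shown beside them. Capitals mark the core. They lie in 3′ UTR exons on hg19, at chr19:39899836-39899864 on the plus strand, chr14:69254794-69254822 and chr2:43450587-43450615 on the minus strand, chr12:92534546-92534574 on the minus strand and chr1:203276656-203276684 on the plus strand, in the order printed.
ZFP36: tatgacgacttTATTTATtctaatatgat
ZFP36L1: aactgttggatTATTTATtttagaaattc
ZFP36L2: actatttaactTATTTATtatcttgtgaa
BTG1: aatagatttctTATTTATctgaaggtata
BTG2: aaatgaagagcTATTTATatatattattt

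Libraries held 18347109 to 45005769 reads counted on genes, and the 0 min replicate 2 library was the deepest. HepG2 identity was checked on hepatocyte markers, whose summed level over 8 genes was 66418 to 82312 CPM (counts scaled to the library total). Of 3 leukocyte genes PTPRC had 0 counts in all 10 libraries, CD68 lay at 36.3 to 45.3 CPM and LYZ at 4804 to 6433 CPM. Summed levels were 2.43 to 4.21 CPM for 3 endothelial genes and 10.5 to 15.3 CPM for 3 fibroblast and stellate cell genes. The part of these transcripts in the results was not tested. Counts were scaled by TMM and tested with the quasi-likelihood test of edgeR, with all 10 libraries in 1 model, and a gene was called where the Benjamini-Hochberg adjusted p over all 13852 genes was under 0.05. RNA from whole cultures cannot tell fewer cells with a transcript from less of it per cell, and that holds for every level below.

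After 240 min of insulin all 6 mRNAs differed from 0 min. The 3 ZFP36 mRNAs and BTG2 rose, and BTG1 and TOB1 fell. At this time 41% of all tested genes were called, 20.6% as higher and 20.4% as lower, so a call by itself does not set the 6 apart from other genes. With scaling to the ERCC spike-in RNAs the split over all genes was 331 higher and 728 lower, and 3 of the 6 genes were called. In the test of any difference among the 5 times, 38.3% of genes and all 6 of these were called. Before 240 min the only call among them was ZFP36L2 at 30 min.

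**Figure D1:**
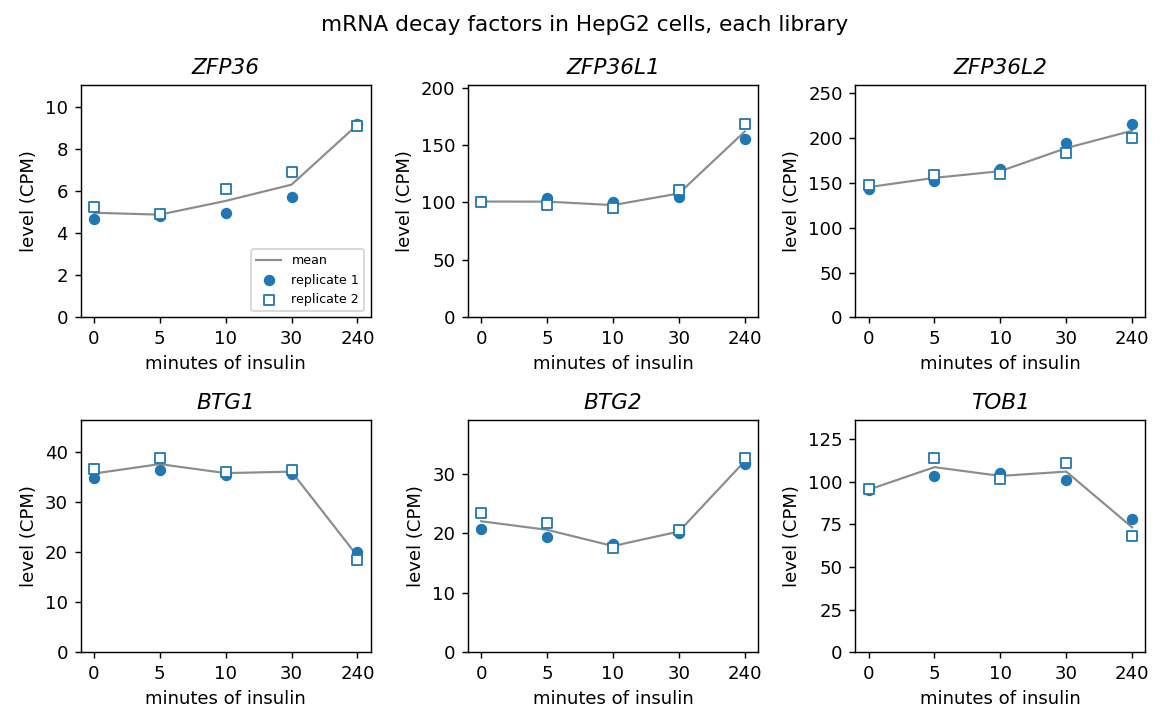
Level in CPM (linear axis from 0, a scale for each gene) of the 6 mRNAs at each time of insulin, with a filled circle for replicate 1, an open square for replicate 2 and a line through the means. BTG1 lay between 34.7 and 38.7 CPM up to 30 min and at 19.9 and 18.5 CPM at 240 min, and ZFP36L2 was already higher at 30 min.

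ZFP36 (chr19:39897487-39900052, plus strand, hg19) encodes tristetraprolin, the founding member of the family. It stood at 4.69 and 5.25 CPM at 0 min, 4.83 and 4.93 after 5 min, 4.97 and 6.09 after 10 min, 5.71 and 6.90 after 30 min, and 9.20 and 9.10 after 240 min. Only the 240 min libraries stood well clear of the rest, although those of 30 min also lay above those of 0 min. Between 0 and 30 min libraries were apart, in either direction, for 38.3% of all genes, and between 0 and 240 min for 69.7%. ZFP36 rose 1.82-fold at 240 min (log2 fold change 0.86, SE 0.13, edgeR adjusted p = 3.10e-05). Its counts were low, 101 to 234 reads per library, and its SE was the largest of the 6. At 30 min the log2 fold change was 0.31 (SE 0.14, edgeR adjusted p = 0.564), with a 95% interval of 0.023 to 0.60.

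ZFP36L1 (chr14:69254372-69262960, minus strand) is a paralog with similar zinc fingers. Its 2 libraries read 101.3 and 100.3 CPM at 0 min, 103.8 and 97.7 after 5 min, 100.04 and 95.4 after 10 min, 104.7 and 111.0 after 30 min, and 155.0 and 168.5 after 240 min. The 8 libraries up to 30 min lay close together and both 240 min libraries far above them. Between 0 and 240 min libraries were apart, in either direction, for 69.7% of all genes. The rise was 1.603-fold (log2 0.68, SE 0.054, edgeR adjusted p = 1.32e-08). At 30 min the log2 fold change was 0.10 (SE 0.054, edgeR adjusted p = 0.670).

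ZFP36L2 (chr2:43449541-43453745, minus strand), the third paralog, was the only member called before 240 min, although no test compared its course with that of another gene. It stood at 142.4 and 147.7 CPM at 0 min, 152.0 and 158.8 after 5 min, 165.4 and 160.2 after 10 min, 193.8 and 183.2 after 30 min, and 215.6 and 200.03 after 240 min. In CPM the libraries of each time lay above both libraries of the time before. Libraries were apart, in either direction, for 48.4% of all genes at 5 against 0 min and 47% at 10 against 5 min. The shares were 32.2% at 30 against 10 min and 65.9% at 240 against 30 min. In TPM the order broke at 10 min replicate 2, with 105.71 beside 105.73 for 5 min replicate 2. ZFP36L2 was called at 30 min, where 0.332% of all genes were called, with a 1.30-fold rise (log2 0.38, SE 0.051, edgeR adjusted p = 0.000855) and the rank 9 by p among all genes. The log2 fold change from 0 min was 0.10 (SE 0.052) at 5 min and 0.17 (SE 0.051) at 10 min, neither called, with edgeR adjusted p = 0.399 and 0.589. At 240 min it was 1.43-fold higher than at 0 min (log2 0.52, SE 0.051, edgeR adjusted p = 2.03e-07). The call at 30 min was lost with ERCC scaling (log2 0.25, adjusted p = 0.911), which shifted the median of all genes by -0.13, and held with each library left out.

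BTG1 (chr12:92534054-92539673, minus strand) restrains proliferation and is lost or mutated in lymphoid cancers. It read 34.7 and 36.6 CPM at 0 min, 36.4 and 38.7 after 5 min, 35.4 and 36.0 after 10 min, 35.6 and 36.4 after 30 min, and 19.9 and 18.5 after 240 min. The first 8 libraries were nearly level. At 240 min it fell to 0.538 of the 0 min level (log2 -0.89, SE 0.070, edgeR adjusted p = 1.14e-08), and 4.04% of all genes had a larger difference in either direction. This fall was called in every alternative run.

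BTG2 (chr1:203274664-203278729, plus strand), an immediate early gene and a p53 target, went the other way. Its levels were 20.6 and 23.4 CPM at 0 min, 19.4 and 21.7 after 5 min, 18.2 and 17.5 after 10 min, 20.1 and 20.4 after 30 min, and 31.6 and 32.5 after 240 min. The 10 min libraries were the lowest, below both at 0 min, and the 240 min libraries the highest. Between 0 and 10 min libraries were apart, in either direction, for 37.2% of all genes, and between 0 and 240 min for 69.7%. The BTG2 difference at 10 min was not called (log2 -0.32, SE 0.081, edgeR adjusted p = 0.272), where 0.137% of genes were. At 240 min BTG2 rose 1.44-fold (log2 0.53, SE 0.077, edgeR adjusted p = 2.01e-05).

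TOB1 (chr17:48939587-48945339, minus strand), the adaptor between the deadenylase and poly(A)-binding protein, had its highest levels at 5 to 30 min with TMM scaling, an order that ERCC scaling did not keep. It read 95.2 and 95.7 CPM at 0 min, 103.5 and 113.8 after 5 min, 105.1 and 101.9 after 10 min, 100.9 and 111.1 after 30 min, and 78.1 and 68.5 after 240 min. In CPM all 6 libraries of 5 to 30 min lay above the 0 min libraries, and both at 240 min below them. Libraries were apart from those of 0 min, in either direction, for 48.4% of all genes at 5 min and 37.2% at 10 min. The shares were 38.3% at 30 min and 69.7% at 240 min. In TPM the TOB1 level of 0 min replicate 2 (115.3) lay above those of 10 min replicate 2 (112.0) and 30 min replicate 1 (112.3). The early differences were not called: the log2 fold change was 0.19 at 5 min (SE 0.063, edgeR adjusted p = 0.255) and 0.15 at 30 min (SE 0.063, edgeR adjusted p = 0.528). At 10 min it was 0.12, and with ERCC scaling the values were 0.10 at 5 min, -0.20 at 10 min and 0.019 at 30 min. At 240 min TOB1 fell to 0.771 of the 0 min level (log2 -0.38, SE 0.064, edgeR adjusted p = 0.000116).

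With ERCC scaling, which shifted the median of all genes by -0.12 at 240 min, 3 of the 6 calls were lost. ZFP36L2 then had an adjusted p of 0.184, BTG2 of 0.181 and TOB1 of 0.0850. ZFP36, ZFP36L1 and BTG1 stayed past the threshold, and no direction at 240 min changed. The share of ERCC counts was 1.59% to 2.36% and highest in the 10 min replicate 2 library.

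**Figure D2:**
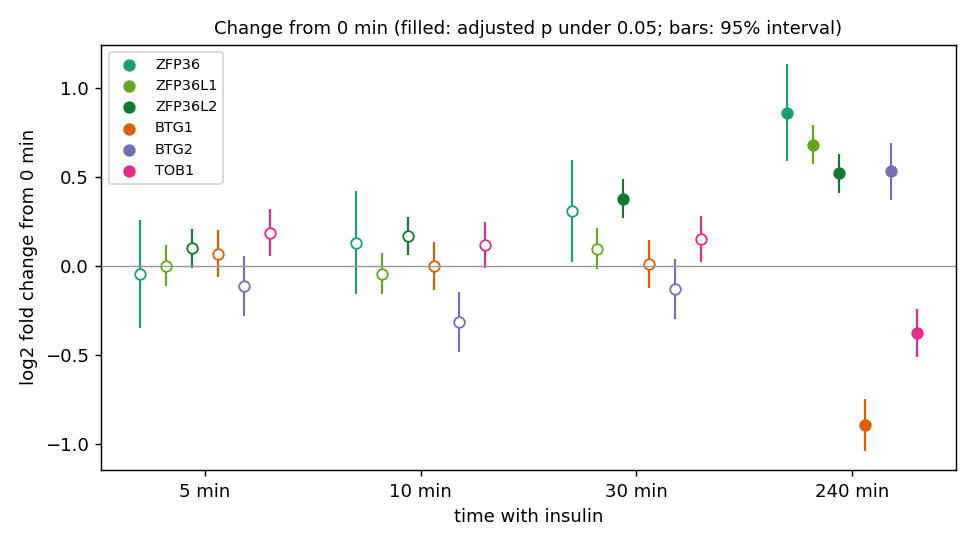
Log2 fold change from 0 min (vertical axis) at 4 times of insulin (horizontal axis), with a point per gene, filled where the edgeR adjusted p was under 0.05, and a bar for the 95% interval. The intervals at 240 min all exclude 0, from 0.86 for ZFP36 down to -0.89 for BTG1, and ZFP36L2 is the filled point at 30 min.

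At 5 min 0 of the 6 genes were called and 0% of all genes, although 1976 genes had an unadjusted p under 0.05 and DESeq2 called 2 genes. The levels of the 2 libraries at 5 min did not overlap those at 0 min for ZFP36L2 and TOB1, as for 48.4% of all genes. The steps between adjacent early times also gave no call among the 6, against 0.26% of all genes for 10 min against 5 min and 0.00722% for 30 min against 10 min. Unadjusted, ZFP36L2 had the rank 11 by p in the step from 10 to 30 min (log2 0.21, SE 0.051, edgeR adjusted p = 0.731).

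The step from 30 to 240 min held most of the change for 5 of the genes. All 6 were called there, against 38.2% of all genes. BTG1 fell by 0.90 on the log2 scale (SE 0.071, edgeR adjusted p = 1.40e-08) and TOB1 by 0.53 (SE 0.065, edgeR adjusted p = 3.06e-06). BTG2 rose by 0.66 (SE 0.080, edgeR adjusted p = 2.43e-06), ZFP36L1 by 0.58 (SE 0.054, edgeR adjusted p = 8.73e-08) and ZFP36 by 0.55 (SE 0.13, edgeR adjusted p = 0.00252). ZFP36L2 rose by 0.14 (SE 0.051, edgeR adjusted p = 0.0353), beside 0.38 from 0 to 30 min. These comparisons share the 0 min or 30 min libraries with those above. The ZFP36L2 call in this step was lost with DESeq2 (adjusted p = 0.0679) and without any of 4 libraries: 10 min replicate 1 (0.0549), 10 min replicate 2 (0.0548), 30 min replicate 2 (0.221) and 240 min replicate 1 (0.333). That of ZFP36 was lost without 30 min replicate 1 (adjusted p = 0.0615).

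Levels of different genes were compared as TPM, the abundance per transcript length within a library. At 0 min TOB1 was the highest at 110 TPM (SD 8.0, n = 2), followed by ZFP36L2 at 96.5 (SD 3.3), ZFP36L1 at 65.0 (SD 1.9), BTG2 at 19.9 (SD 1.9), BTG1 at 18.8 (SD 0.86) and ZFP36 at 6.95 (SD 0.57). The libraries of BTG2 and BTG1 overlapped, and no other neighbours in that order did. At 240 min the order was ZFP36L2 at 142 TPM (SD 5.3), ZFP36L1 at 107 (SD 10.1), TOB1 at 83.3 (SD 6.7), BTG2 at 29.9 (SD 1.0), ZFP36 at 13.2 (SD 0.082) and BTG1 at 10.4 (SD 0.40), with no overlap between neighbours. TOB1 thus moved from the top of the order to below ZFP36L1, and BTG1 to the bottom.

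Ratios of 2 genes within a library do not depend on how libraries are scaled, while sums of TPM do. BTG2 over BTG1 was 0.839 to 1.10 in the 8 libraries up to 30 min, near parity, and 2.74 and 3.03 after 240 min. ZFP36L1 over TOB1 was 0.493 to 0.638 and then 1.13 and 1.45. The summed TPM of the ZFP36 family was 167 to 207 up to 30 min and 259 to 266 at 240 min, while that of BTG1, BTG2 and TOB1 was 141 to 166 and then 119 to 128. In these 4 measures both 240 min libraries lay outside the range of the other 8. ZFP36L2 over ZFP36L1 did not separate in that way, at 1.42 to 1.90 up to 30 min and 1.47 and 1.22 at 240 min. Both ratios that separated set a gene called as higher at 240 min over one called as lower, and the ZFP36 sum pools genes called as higher. Their separation thus repeats those calls and adds no support to them. For single genes, libraries of 0 and 240 min were apart for 69.7% of all genes. The ratios and sums are given as a description, with no test.

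**Figure D3:**
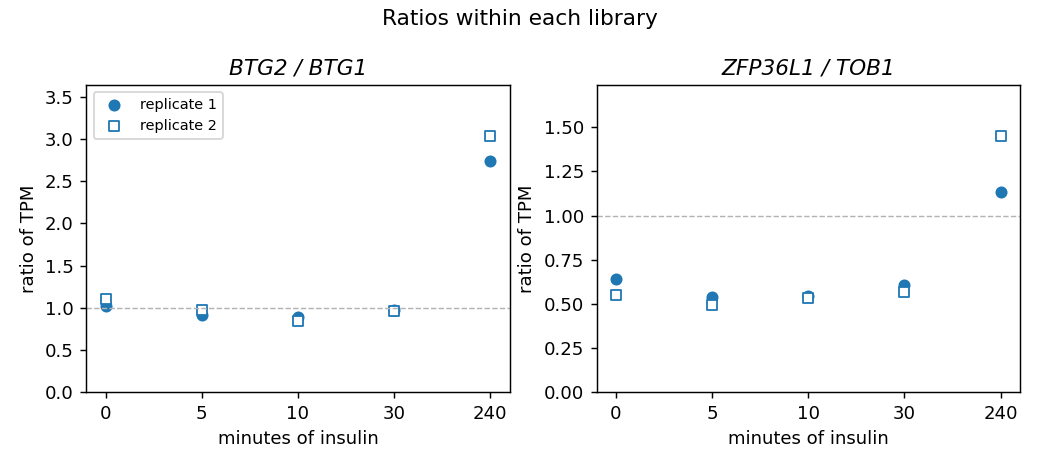
Ratio of TPM within each library (vertical axis, linear from 0) against the time of insulin for BTG2 over BTG1 and for ZFP36L1 over TOB1, with a filled circle for replicate 1, an open square for replicate 2 and a dashed line at 1. Up to 30 min BTG2 over BTG1 stayed between 0.839 and 1.10, and at 240 min it was 2.74 and 3.03.

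The deadenylase that these proteins bind or recruit was examined with other lists of the pathway. Of 12 CCR4-NOT genes 2 rose and 6 fell at 240 min (median -0.13 on the log2 scale, against -0.0026 over all genes), where 20.6% of all genes were higher and 20.4% lower. CNOT8, a catalytic subunit bound by BTG and TOB proteins, fell from 60.9 to 29.9 CPM (log2 -1.03, SE 0.056, edgeR adjusted p = 1.08e-10). CNOT7, the other subunit they bind and the more abundant by CPM, stood at 132 CPM at 0 min and 143 CPM at 240 min and was not called (log2 0.11, SE 0.046, edgeR adjusted p = 0.0590). TNKS1BP1, a protein that associates with the complex, rose by 0.55 (SE 0.062, edgeR adjusted p = 1.05e-06) and CNOT9, a subunit that contacts recruiting proteins, by 0.24 (SE 0.048, edgeR adjusted p = 0.000467) on the log2 scale. Against 30 min, where 38.2% of all genes were called, 2 of the 12 rose and 5 fell, led by the same 3 genes, with -0.93 for CNOT8, 0.50 for TNKS1BP1 and 0.30 for CNOT9.

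Of 8 genes for PAN2-PAN3, poly(A)-binding proteins and their partners 4 fell and 0 rose at 240 min (median -0.080). Among all genes 20.4% were lower and 20.6% higher, and 41% were called in either direction. PAIP2, an inhibitor of poly(A)-binding protein, fell by 0.50 on the log2 scale (SE 0.055, edgeR adjusted p = 8.22e-07), PABPC1L by 0.37 and the exonuclease subunit PAN2 by 0.31. Only 2 were called without the 0 min replicate 2 library. Against 30 min, where 38.2% of all genes were called, 3 fell, PAIP2 by 0.38, PAN2 by 0.39 and PABPC1L by 0.38.

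Of 19 decapping and 5′ to 3′ decay genes 3 rose and 4 fell at 240 min (median -0.031), so 7 in 19 were called beside 41% of all genes, and 4 were called without the 0 min replicate 2 library. XRN1, the cytoplasmic 5′ to 3′ exonuclease, fell by 0.50 on the log2 scale (SE 0.059, edgeR adjusted p = 1.80e-06), the decapping enzyme DCP2 by 0.32 and LSM2 by 0.25. Against 30 min, where 38.2% of all genes were called, 3 rose and 5 fell. The values were -0.56 for XRN1, -0.47 for DCP1B and 0.35 for LSM6. Over the 39 genes of these 3 lists 5 rose and 14 fell at 240 min, and their log2 fold changes ran from -1.03 to 0.55. That count of 19 in 39 stands beside 41% of all genes called, with 20.6% of all genes higher and 20.4% lower. No difference from these shares was tested. None was called at 5, 10 or 30 min.

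Other RNA-binding proteins, most of them known to bind AU-rich elements, were counted apart. The list includes ZC3H12A, RC3H1, CELF1 and YBX1, for which AU-rich elements are not the main or only site. ZC3H12A (0.45 on the log2 scale) and YBX1 (0.18) are among those that rose at 240 min. Of the 11 listed genes 6 rose and 1 fell at 240 min (median 0.13), beside 20.6% higher and 20.4% lower among all genes. TIA1, which holds mRNAs back from translation, fell by 0.53 on the log2 scale (SE 0.050, edgeR adjusted p = 1.18e-07). HNRNPDL rose by 0.59 (SE 0.064, edgeR adjusted p = 6.66e-07) and HNRNPD, also called AUF1, by 0.40 (SE 0.058, edgeR adjusted p = 2.04e-05). Against 30 min, where 38.2% of all genes were called, 6 rose and 2 fell. The values were -0.62 for TIA1, 0.64 for HNRNPDL and 0.39 for HNRNPD.

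The family has further members. Of BTG3, BTG4 and TOB2, BTG4 did not pass the filter on low counts. TOB2, the closest paralog of TOB1, fell by 0.29 on the log2 scale at 240 min (SE 0.051, edgeR adjusted p = 0.000136), as TOB1 did, and BTG3 rose by 0.35 (SE 0.079, edgeR adjusted p = 0.00159). Against 30 min BTG3 rose by 0.43 and TOB2 was not called. Among all genes 41% were called at 240 min against 0 min and 38.2% against 30 min.

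Kinases, phosphatases and binding partners that act on ZFP36 proteins were listed too. Of 11 genes 2 rose and 3 fell at 240 min (median -0.037), a count near the 41% of all genes called, and only 1 or 2 were called when any single library of 0 or 240 min was left out. PPP2CA, the catalytic subunit of a phosphatase that acts on ZFP36, rose by 0.20 on the log2 scale (SE 0.047, edgeR adjusted p = 0.00201) and MAPKAPK3 by 0.15. MAPK14, the p38 kinase upstream of both MAPKAPK enzymes, fell by 0.14. Against 30 min, where 38.2% of all genes were called, PPP2CA rose by 0.21 and MAPKAPK3 by 0.16.

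Of 23 mRNAs known as targets of ZFP36 proteins 19 were tested, and all 23 hold the core letters in their 3′ UTR, as the choice of targets would favour. DUSP1 is in this list and in that of kinases and phosphatases. At 240 min 9 rose and 2 fell (median 0.24), beside 20.6% higher and 20.4% lower among all genes. The inflammatory chemokine CXCL8 rose from 11.5 to 38.0 CPM (log2 1.67, SE 0.13, edgeR adjusted p = 9.03e-09) and the early response gene IER3 from 32.3 to 55.4 CPM (log2 0.78, SE 0.074, edgeR adjusted p = 1.23e-07). The kinase PIM1 fell from 43.7 to 15.8 CPM (log2 -1.45, SE 0.076, edgeR adjusted p = 6.02e-11). Against 30 min, where 38.2% of all genes were called, 7 rose and 1 fell. The values were -1.69 for PIM1, 1.23 for IER3 and 1.54 for CXCL8.

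Targets were also called early, beside 0.137% of all genes at 10 min, 0.26% from 5 to 10 min and 0.332% at 30 min. ERCC scaling shifted the median of all genes by -0.33 at 10 min. IER3 fell by 0.70 on the log2 scale at 10 min (SE 0.081, edgeR adjusted p = 0.000149) and BIRC3, an inhibitor of apoptosis, by 0.48 (SE 0.088, edgeR adjusted p = 0.0208). From 5 to 10 min 3 fell, BIRC3 by 0.61, IER3 by 0.55 and CXCL8 by 0.84. At 30 min IER3 fell by 0.45 and E2F1 by 0.31 relative to 0 min. FOS, an immediate early gene, rose at a low level from 1.85 to 4.39 CPM (log2 1.404, SE 0.27, edgeR adjusted p = 0.0218). Whether ZFP36 proteins bear on these levels was not tested.

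**Figure D4:**
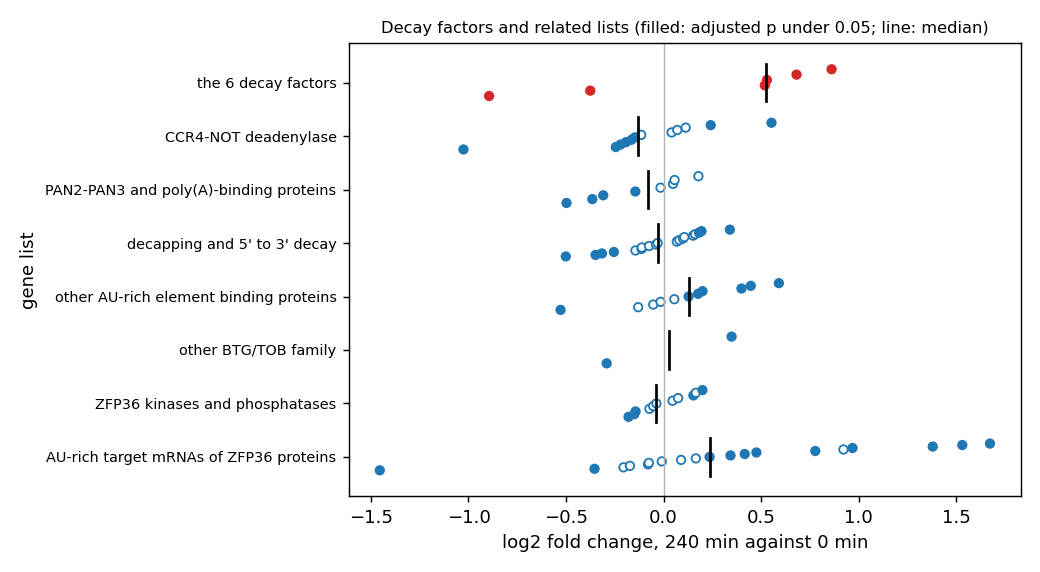
Log2 fold change from 0 to 240 min of insulin (horizontal axis) of each tested gene in the 6 decay factors (red) and 7 related lists (blue, rows), filled where the edgeR adjusted p was under 0.05, with a line at the median of each row. The median was -0.13 for CCR4-NOT and 0.24 for the targets, and CNOT8 is the lowest CCR4-NOT point at -1.03.

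Genes with the most similar course were ranked by Pearson's r of log2 CPM over the 10 libraries among 10388 genes. Because the 240 min libraries stand apart for 5 of the 6, r over the 8 libraries up to 30 min follows it as a description. JUN, an AP-1 subunit, was among the nearest for ZFP36L1 (0.99, then 0.91), after PIGM (0.99, then 0.76) and before LINC01521 (0.99, then 0.70). NFKBIA, the inhibitor of NF-κB, was the nearest for ZFP36L2 (0.98, then 0.95), followed by ANAPC16 (0.97, then 0.95) and CIRBP (0.95, then 0.93). For ZFP36 they were UBE2G1 (0.97, then 0.87), the transcription factor HES1 (0.97, then 0.87) and SLC35F2 (0.97, then 0.93).

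For BTG1 they were TMEM181 (0.997, then 0.860), the apoptosome component APAF1 (0.997, then 0.856) and the autophagy receptor NBR1 (0.996, then 0.762). KIF7 (0.98, then 0.92), CHST3 (0.98, then 0.88) and ZSCAN9 (0.97, then 0.80) were nearest to BTG2. DPY19L4 (0.99, then 0.96), the transcription factor HLF (0.99, then 0.91) and PCGF5 (0.98, then 0.92) were nearest to TOB1. Libraries of a time share their cultures' treatment and depth enters every value, so these are likenesses within 10 libraries.

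The list of 1971 IR peaks, from 1 library and thus without a replicate check, held none within 5 kb of any of the 6 genes. Of the 13852 tested genes 15.7% had such a peak. Widening the distance to 20 kb took in 1, at chr19:39881607-39882003 and 15.5 kb from ZFP36, with a score of 224 against a median of 79.0 over all peaks; the annotation places it at a promoter listed as ENSG00000006712, the identifier of PAF1, and the column of nearest genes names MED29. The nearest peaks of the other 5 genes lay 154 kb (TOB1) to 968 kb (ZFP36L1) away.

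Promoter sequence from the RefSeq table, whose start sites are on GRCh38.p14 and which was matched exactly to hg19, was found for 5 of the 6 genes, with 2 starts each for ZFP36L1 and TOB1, and not for ZFP36L2. Motifs were searched on both strands in the 300 bases from 250 before to 50 after the start, and no found motifs overlapped. The BTG1 promoter held TATAAA at -33 to -28 on the strand of the gene. On the strand opposite the gene it held CCAAT at -87 to -83 and the FOXO letters GTAAACA at -209 to -203. FOXO factors are held outside the nucleus under insulin signalling. CCAAT also stood at -76 to -72 in BTG2 and at -186 to -182 of the inner TOB1 start. On the opposite strand it stood at -59 to -55 of the outer ZFP36L1 start. Of 35116 promoters 3.42% held the FOXO letters, 11.5% TATAAA and 34.6% CCAAT. The inner ZFP36L1 start held the cyclic AMP response element TGACGTCA at -52 to -45, as did 1.85% of promoters. No CArG box, the site of serum response factor and present in 1.29% of promoters, was in these windows. A match says nothing of whether a factor binds.

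The BTG1 promoter and the inner ZFP36L1 promoter are shown. Among the 5 genes searched, which leave out ZFP36L2, they alone held FOXO or cyclic AMP response letters. They lie at chr12:92539573-92539872 and chr14:69260084-69260383, both on the minus strand of hg19. Capitals mark the motifs named, and no IR peak lies in these promoters. The motifs on the strand opposite BTG1 read as TGTTTAC and ATTGG in its line.
BTG1: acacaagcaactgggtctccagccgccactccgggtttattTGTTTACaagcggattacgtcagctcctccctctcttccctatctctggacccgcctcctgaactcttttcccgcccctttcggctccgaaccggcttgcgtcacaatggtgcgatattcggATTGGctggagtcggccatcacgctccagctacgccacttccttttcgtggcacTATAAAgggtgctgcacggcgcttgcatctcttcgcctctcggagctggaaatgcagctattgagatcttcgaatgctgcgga
ZFP36L1: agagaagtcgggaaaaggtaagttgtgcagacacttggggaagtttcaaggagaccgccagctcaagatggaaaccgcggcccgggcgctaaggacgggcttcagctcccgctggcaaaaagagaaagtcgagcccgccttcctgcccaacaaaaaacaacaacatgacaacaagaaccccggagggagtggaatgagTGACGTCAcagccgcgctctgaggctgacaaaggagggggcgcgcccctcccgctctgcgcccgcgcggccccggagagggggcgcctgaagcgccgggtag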

How the data were processed

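RNA-seq libraries of HepG2 cells at 5 times of insulin and 1 IR ChIP-seq library were analysed. The authors trimmed the single-end reads with Trim Galore 0.6.4, aligned them to hg19 with STAR 2.6.1d, marked duplicates and counted reads per gene with featureCounts 1.6.4 (reverse-stranded, nf-core pipeline), and deposited raw counts. Gene abundances in TPM and FPKM, with the coverage signal, were deposited per library as StringTie wrote them, and only TPM was read. ChIP-seq reads were aligned with BWA 0.7.17-r1188, peaks were called with MACS2 2.2.7.1, and the deposited peak table holds a score for each, annotated by HOMER. The labels' protocol texts of the ChIP and RNA libraries appear exchanged, so preparation steps were not used here.

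The 92 ERCC rows (1.59% to 2.36% of counts) were left out of totals and of every test. Differences in counts were tested by edgeR 4.0.16 under R 4.3.3 (TMM, filterByExpr by time, quasi-likelihood test, 1 model of 10 libraries, no replicate block). Called genes had a Benjamini-Hochberg adjusted p under 0.05 over 13852 genes, two-sided. CPM were counts scaled to the TMM library size. Alternatives were DESeq2 1.42.0, RLE, upper-quartile and ERCC scaling, no filter, at least 10 counts in every library, a replicate block, the likelihood ratio test, only the times compared, limma 3.58.1 on TPM (log2 after adding 1 or 0.1, or only genes with a mean of at least 1), and each library left out. The script of the test was first run on simulated counts.

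The members, lists and tests were chosen with earlier results of these data known. Named genes were the 6 members, the 3 called genes of each list with the smallest adjusted p in a comparison, and the 3 genes of highest r with each member among those with a mean of at least 5 CPM. Lists were given by counts and medians. The 3′ UTR of the GENCODE canonical transcript was read on hg19. Libraries of 1 time differed beyond counting noise (chi-square per degree of freedom 2.80 to 6.30). Intervals cover the spread between libraries.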

Additional observations from a re-analysis of the deposited data

Results flagged for a closer look

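The change from 0 to 240 min differed from the change from 0 to 30 min for all 6 genes, which the direct comparison of both times in edgeR tests (adjusted p at most 0.0353), as it did for 38.2% of all tested genes. The difference on the log2 scale was 0.55 for ZFP36, 0.58 for ZFP36L1 and 0.66 for BTG2, which were higher at the later time. It was -0.90 for BTG1 and -0.53 for TOB1, which were lower. For ZFP36L2 it was 0.14, the smallest of the 6 and the call most often lost among the alternatives.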

How the results depend on the processing

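Of the alternatives, ERCC scaling changed the counts most. It called 0 of the 6 genes at 30 min, 3 at 240 min against 0 min and 3 at 240 min against 30 min. Over all 13852 genes it called 4, 1059 and 917 in these comparisons, in place of 46, 5676 and 5297. In the test over all times it called 4 of the 6, and the share over all genes under that scaling is not given here. With the replicate block 6 of the 6 genes were called at 240 min and 1 at 30 min, beside 5845 and 59 of all 13852 genes. The replicate differences of only 3 of 10 pairs of times correlated over 0.1 (-0.19 to 0.16). The replicate numbers were therefore not taken to pair libraries, and with the block no call among the 6 changed. At 240 min against 30 min 5 were called with DESeq2 and with only the times compared, where ZFP36L2 was lost (adjusted p = 0.101 in the latter). Over all genes these settings called 4246 of 26364 and 4736 of 13469. With ERCC scaling ZFP36L2 (0.778), ZFP36 (0.122) and TOB1 (0.0786) were lost in that step. No other alternative lost a call at 240 min against 0 min. Over all genes, calls at 30 min ran from 4 with ERCC scaling to 160 with no filter on low counts, against 46, and at 10 min from 1 with limma on log2(TPM + 1) to 74 with no filter, against 19. No filter gave 144 at 5 min, 281 for 10 min against 5 min (36) and 41 for 30 min against 10 min (1). Within 20 kb, IR peaks were found at 1 gene in place of 0.

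Signs turned only for early differences that were not called; those over 0.1 on the log2 scale were ZFP36 (0.13), ZFP36L2 (0.17) and TOB1 (0.12) at 10 min, where ERCC scaling shifted the median of all genes by -0.33, and ZFP36 from 5 to 10 min (0.18). For ZFP36L1 at 5 min the value was -0.0058 with upper-quartile, -0.083 with ERCC scaling, -0.00051 with no filter, and -0.0013 with at least 10 counts in every library and with only the times compared. For BTG1 at 10 min it was 0.00031 with DESeq2, 0.0028 with no filter, 0.00074 with the replicate block and 0.0068, 0.0071 and 0.0068 with limma on TPM. With ERCC scaling it was -0.011 for BTG1 at 5 min; -0.20 for ZFP36, -0.15 for ZFP36L2 and -0.20 for TOB1 at 10 min; -0.035 for ZFP36L1 and -0.12 for BTG1 at 30 min; and -0.083 for ZFP36 and -0.17 for ZFP36L2 from 5 to 10 min. With each library left out, values ran from -0.11 to 0.057 for ZFP36 and -0.045 to 0.043 for ZFP36L1 at 5 min, -0.035 to 0.042 for BTG1 and -0.018 to 0.28 for ZFP36 at 10 min, and -0.023 to 0.053 for BTG1 at 30 min. From 5 to 10 min they ran from -0.087 to 0.000495 for ZFP36L1 and -0.14 to 0.000066 for TOB1, and from 10 to 30 min from -0.0041 to 0.028 for BTG1 and -0.037 to 0.10 for TOB1. The cause was not tested. Depth was lowest for ZFP36, with 101 to 234 reads per library, and its SE was the largest.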
